A study of Mus musculus with 3 samples.

Results

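ERVK elements are endogenous retroviruses, copies of ancient retroviral genomes that are part of the mouse genome. A complete copy, or provirus, has an internal sequence that carried the viral gag, pro and pol genes between 2 long terminal repeats (LTRs), and the LTRs hold the promoter and polyadenylation signals. The peaks described here are those whose centre lay in an ERVK internal sequence. They were taken as all peaks with a repeat annotation of class LTR and family ERVK whose element name contains "-int". Of 16113 Seh1 peaks 392 met this rule, as did 144 among 5314 IgG peaks, or 536 of 21427 in all. The name, class and family fields were the only evidence for the label; the copies themselves were not aligned here.

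The lists come from ChIP-seq of cultured cortical neural stem cells of wild-type mice. The cells were grown from postnatal day 0 cortex in a medium with EGF and bFGF at 20 ng/ml each, and were fixed with 1% formaldehyde. One library was made with an antibody against Seh1, a subunit of the nuclear pore and of the GATOR2 complex; one with IgG, which has no chromatin target; and one from input chromatin, which has no list of its own here. All 3 libraries share genotype and medium, and with 1 library a group there is no replicate error and no p-value is given. Intervals are 95% exact binomial intervals for shares and 95% intervals on the log scale for ratios; they cover counting error only and take peaks as independent, which neighbouring peaks are not.

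In most somatic cells ERVK proviruses are held silent by DNA methylation and by the KAP1 (Trim28) and Setdb1 pathway, which places H3K9 trimethylation on them. In mouse neural progenitors the loss of Trim28 is known to release intracisternal A particle (IAP) and MMERVK10C proviruses. Many copies are young and nearly identical. The placement of reads that fit several copies is not given in the labels or headers, and the copy marked by a peak in a young element is uncertain.

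ERVK internal sequence took up a similar share of both lists. It was at the centre of 2.43% of Seh1 peaks (2.20 to 2.68%) and 2.71% of IgG peaks (2.29 to 3.18%), a Seh1 to IgG ratio of 0.898 (0.744 to 1.08). The LTRs of the same family did not follow it: they were at 1205 Seh1 peaks, or 7.48% (7.08 to 7.90%), and at 137 IgG peaks, or 2.58% (2.17 to 3.04%), a ratio of 2.90 (2.44 to 3.45). All ERVK peaks outside the rule above were counted as LTR. They include 8 Seh1 peaks and 0 IgG peaks whose names end in I, a suffix used for internal parts. The Seh1 list therefore held proportionally more ERVK peaks than the IgG list in LTRs, and not in the internal sequence.

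Set within the family, internal sequence was 24.5% of the 1597 ERVK peaks of the Seh1 list (22.5 to 26.7%) and 51.2% of the 281 ERVK peaks of the IgG list (45.2 to 57.2%). ERV1 and ERVL-MaLR, other families of LTR retrotransposons, had the opposite order. In ERV1, internal parts were 127 of 239 Seh1 peaks (53.1%, 46.6 to 59.6%) and 5 of 24 IgG peaks (20.8%, 7.13 to 42.2%). In ERVL-MaLR they were 29.2% of Seh1 peaks (25.8 to 32.7%) and 17.4% of IgG peaks (11.9 to 24.1%). In ERVL the shares were 37.8% and 27.9%, and the interval of their ratio, 1.36 (0.811 to 2.26), included 1.

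**Figure D1:**
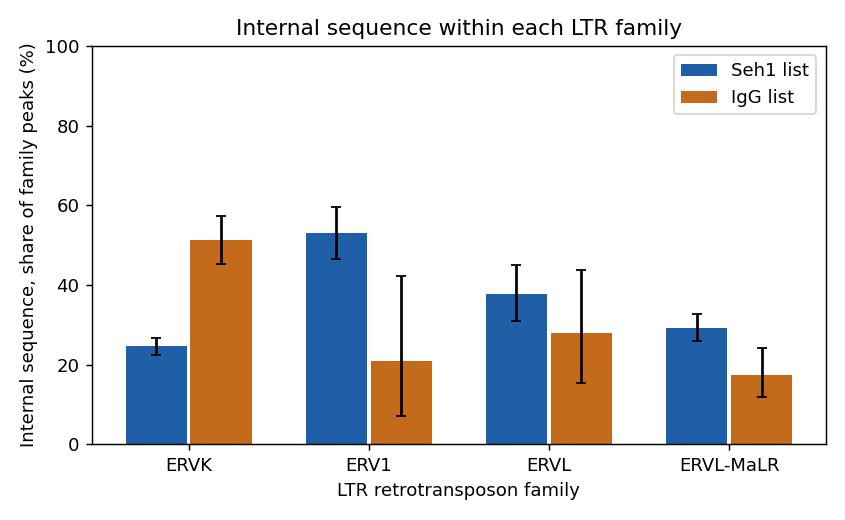
Share of peaks in internal sequence among all peaks of each LTR retrotransposon family, in percent, for the Seh1 and IgG lists; bars are shares and whiskers are 95% exact binomial intervals. In ERVK the IgG bar, at 51.2%, is higher than the Seh1 bar, at 24.5%, whereas in ERV1, ERVL and ERVL-MaLR the Seh1 bar is the higher one.

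The similar totals were made of different mixes of elements. The lists held 34 internal element names in all, of which 14 were in both, 12 in the Seh1 list alone and 8 in the IgG list alone. The same count was not made over all repeat names. Many of the names in 1 list alone had few peaks and the lists differ in length, so these counts say little. The 17 names with 5 or more peaks in either list covered 366 of the 392 Seh1 and 121 of the 144 IgG peaks. Among these 17 names, 2 (11.8%) were at least 2-fold more frequent among Seh1 peaks and 5 (29.4%) among IgG peaks; a name absent from one list counted as 2-fold only if it passed that ratio against 3 peaks there. Over all 250 repeat names with as many peaks, the same rule gave 28.8% in the Seh1 direction and 24.4% in the IgG direction. Differences of this size were thus common among repeat names in general. Of the 2 names in the Seh1 direction, IAPLTR3-int had 9 Seh1 peaks and 1 IgG peak, and the interval of its ratio (0.376 to 23.4) included 1. A name absent from the IgG list needed 19 Seh1 peaks to count, so the rule had little reach for the rarer Seh1 names. In the other direction RMER16-int counted with 5 IgG and 0 Seh1 peaks. The counts of 2 and 5 are therefore not on an equal footing.

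**Figure D2:**
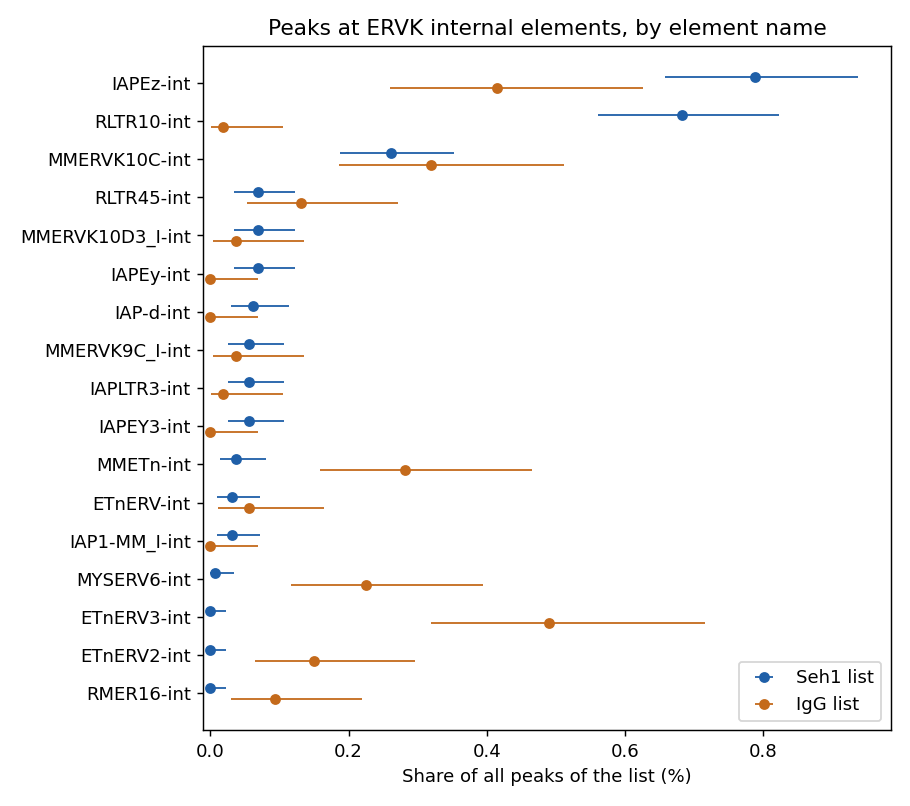
Share of all peaks of a list at each ERVK internal element name with 5 or more peaks in either list, in percent; points are shares and lines are 95% exact binomial intervals. RLTR10-int, with 110 Seh1 peaks and 1 IgG peak, and ETnERV3-int, with 0 Seh1 peaks and 26 IgG peaks, stand farthest apart.

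RLTR10-int, the internal part of proviruses with RLTR10 type LTRs, was the most one-sided name of the Seh1 list. It was at 110 Seh1 peaks, or 0.683% (0.561 to 0.822%), spread over 20 chromosomes, and at 1 IgG peak, or 0.0188%, a ratio of 36.3 (5.07 to 259.8). These peaks made up 28.1% of all ERVK internal peaks of the Seh1 list and 0.694% of those of the IgG list. The matching LTRs went the same way, with 166 Seh1 peaks and 2 IgG peaks (ratio 27.4, 6.79 to 110.3). Of the other RLTR names, RLTR45-int had 11 Seh1 and 7 IgG peaks (ratio 0.518, 0.201 to 1.34), and RLTR42-int, RLTR44-int and RLTR19-int had 4, 2 and 1 Seh1 peaks and 0 IgG peaks. As a group the RLTR names had 128 Seh1 and 8 IgG peaks (ratio 5.28, 2.58 to 10.8).

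IAP elements, a young and still mobile group that is a common source of new insertions in laboratory mice, were the largest group of the Seh1 list. They were at 175 Seh1 peaks (44.6% of the ERVK internal peaks) under 7 names and at 23 IgG peaks (15.97%) under 2 names, a ratio of shares of all peaks of 2.51 (1.63 to 3.87). IAPEz-int alone had 127 Seh1 peaks (0.788%, 0.657 to 0.937%) and 22 IgG peaks (0.414%, 0.260 to 0.626%), a ratio of 1.90 (1.21 to 2.99). The other IAP names had few peaks and were nearly absent from the IgG list: IAPEy-int had 11 Seh1 peaks, IAP-d-int had 10, IAPLTR3-int and IAPEY3-int had 9 each, IAP1-MM_I-int had 5 and IAPEY4_I-int had 4. The IgG list held 1 IAPLTR3-int peak and 0 of the others, and the interval of 0 of 5314 reaches 0.0694%.

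The contrast between the lists was larger in the IAP LTRs than in the IAP internal parts. IAP LTRs were at 318 Seh1 peaks and 2 IgG peaks, a ratio of 52.4 (13.1 to 210.5), whereas the IgG list held 22 peaks in IAPEz-int alone. The LTR names IAPEY2_LTR, IAPLTR1a_Mm, IAPLTR2_Mm and IAPEY_LTR each had 37 to 50 Seh1 peaks and 0 IgG peaks. IAP is therefore a group in which the IgG list held internal sequence and hardly any LTR.

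The MMERVK and ERVB names, betaretrovirus-like proviruses that include MMERVK10C, had similar shares in both lists. They had 75 Seh1 peaks (0.465%) and 31 IgG peaks (0.583%), a ratio of 0.798 (0.526 to 1.21). MMERVK10C-int itself was at 42 Seh1 peaks (0.261%, 0.188 to 0.352%) and 17 IgG peaks (0.320%, 0.186 to 0.512%). MMERVK10D3_I-int had 11 and 2 peaks and MMERVK9C_I-int had 9 and 2, and for both the interval of the ratio included 1.

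The ETn group was the leading one of the IgG list. It joins MMETn-int, from early transposons, which lack retroviral genes and are known to move with proteins of related proviruses, and the ETnERV names, given to provirus-like relatives of these elements. ETn names were at 52 IgG peaks (0.979%, 0.732 to 1.28%) and 11 Seh1 peaks (0.0683%, 0.0341 to 0.122%), so that the IgG share was 14.3 times the Seh1 share (7.49 to 27.4). ETnERV3-int had 26 IgG peaks and 0 among 16113 in the Seh1 list, where the interval of 0 reaches 0.0229%. Set against 3 Seh1 peaks in place of 0, the IgG share was 26.3-fold higher. ETnERV2-int had 8 and 0 peaks, 8.09-fold higher in the IgG list on the same basis. Both ratios leave out the counting error of the IgG list, so they are not lower limits. Both also count peaks, and the 26 ETnERV3-int peaks lay at 16 loci when peaks within 10 kb were counted once. On that basis the log2 ratio of Seh1 to IgG for the ETn group was -3.53 (-4.49 to -2.57), in place of -3.84. MMETn-int had 15 IgG and 6 Seh1 peaks, 7.58 times the Seh1 share (2.94 to 19.5), and ETnERV-int had 3 and 5. LTRs named RLTRETN went the other way, with 24 Seh1 peaks and 0 IgG peaks. Not all ERVK LTRs did so, as RLTR13 LTRs had 15 Seh1 and 15 IgG peaks (ratio 0.330, 0.161 to 0.674). Which LTR belongs to each ETnERV name was not analysed here.

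MYSERV and the remaining names also belonged mainly to the IgG list. MYSERV6-int was at 12 IgG peaks and 1 Seh1 peak, and MYSERV16_I-int at 4 and 1. RMER16-int had 5 IgG peaks and 0 Seh1 peaks, 5.05-fold higher in the IgG list when set against 3 Seh1 peaks. This ratio too leaves out the counting error of the 5 IgG peaks. The 17 names with fewer than 5 peaks in both lists summed to 26 Seh1 and 23 IgG peaks.

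The IgG peaks were more bunched than the Seh1 peaks, in ERVK internal sequence as in other repeats. Peaks of one name with centres within 10 kb, the length scale of a provirus, were joined into loci. The 392 Seh1 peaks then formed 383 loci, of which 9 held 2 peaks and none held more. The 144 IgG peaks formed 130 loci, of which 10 held 2 or more. Joining thus took away 9.72% of the internal IgG peaks (5.42 to 15.8%) and 2.30% of the internal Seh1 peaks (1.06 to 4.31%), against 4.47% (3.71 to 5.33%) and 0.299% (0.177 to 0.472%) of the other repeat-labelled peaks. The 26 ETnERV3-int peaks of the IgG list formed 16 loci, and 1 of these, on chromosome 6 from 40549280 to 40553065, held 4 peaks upstream of the olfactory receptor gene Olfr461. Another, from 54408010 to 54412313 on chromosome 1, held 3 peaks in intron 13 of 17 of Gtf3c3, a subunit gene of transcription factor IIIC. RLTR10-int had 106 Seh1 loci for its 110 peaks.

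No Seh1 peak in ERVK internal sequence overlapped an IgG peak by 1 bp or more. The count was 0 of 392, against 0.372% of all Seh1 peaks, and 0 of 144 from the IgG side, against 1.13% of all IgG peaks. Both shares of all peaks are so small that a count of 0 says little. With centres within 10 kb, 17 of 392 (4.34%) had an IgG peak nearby, against 4.17% of all Seh1 peaks. In 3 of these 17, named here after their values were seen, the IgG peak was itself in ERVK internal sequence. An IAPEz-int pair lay 1.02 kb apart on chromosome 7, with the Seh1 peak from 55411383 to 55411625, and an MMETn-int pair lay 1.21 kb apart on chromosome 13, with the Seh1 peak from 113722335 to 113722577. The other paired an MMERVK10C-int peak on chromosome 4 with an IgG peak in MMTV-int 7.59 kb away.

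Few Seh1 peaks in internal sequence had a second peak in an ERVK LTR nearby, though more than peaks outside ERVK did. Within 10 kb of 26 of the 392 (6.63%, 4.38 to 9.57%) lay another Seh1 peak in an ERVK LTR, against 1.34% (1.16 to 1.54%) of Seh1 peaks outside ERVK. Of the IgG peaks 8 of 144 (5.56%, 2.43 to 10.7%) had such a neighbour, against 0.974% (0.721 to 1.29%). A complete provirus has ERVK LTRs beside its internal sequence, so an excess over peaks outside ERVK is built into this comparison. The same order in both lists is therefore no finding about Seh1.

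Some of the internal Seh1 peaks were wide. Over 500 bp wide were 26 of 392 (6.63%, 4.38 to 9.57%), against 2.69% (2.44 to 2.95%) of all Seh1 peaks, and the median width was 276 bp (267 to 285), against 266 bp. RLTR10-int supplied 14 of these 26 and IAPEz-int 8. For IgG, 11 of 144 (7.64%, 3.87 to 13.3%) were over 500 bp, against 5.72% (5.11 to 6.38%) of all IgG peaks. Peak width is the only measure of size that the lists give, because the deposited score is 0 for every peak.

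The widest Seh1 peak in the set spanned 850 bp in IAPEy-int on chromosome Y, from 16799824 to 16800673, with Gm20877 as the nearest gene at 293.6 kb. The next spanned 763 bp in MMERVK10C-int on chromosome 5, from 99986926 to 99987688, and lay 8.37 kb upstream of Hnrnpd, which encodes an RNA-binding protein that regulates mRNA decay. The third was a 740 bp peak of RLTR10-int at 48733934 to 48734673 on chromosome 3, with the nearest TSS, that of the pseudogene 1700018B24Rik, 125.2 kb away. Another RLTR10-int peak, 717 bp wide, was at 36924200 to 36924916 on chromosome 13, in intron 8 of 14 of F13a1, the gene of coagulation factor XIII subunit A. The fifth, of 669 bp in IAPEz-int, was on the same chromosome, from 9853044 to 9853712, 88.1 kb upstream of Zmynd11, which encodes a reader of histone H3.3 methylation.

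For the remaining groups the widest Seh1 peaks were smaller. They were 332 bp in ETnERV-int on chromosome 7, from 133530668 to 133530999 (nearest gene Tex36), 440 bp in MYSERV6-int on chromosome 18, from 9931462 to 9931901 (nearest gene Thoc1, of the mRNA export complex THO), and 302 bp in RMER17A-int on chromosome 3, from 91245938 to 91246239. The widest IgG peaks of the set were 804 bp in ETnERV3-int on chromosome 5, from 123543506 to 123544309 in an intron of Vps33a, 798 bp in MMETn-int on chromosome 14, from 6946565 to 6947362, and 740 bp in RMER16-int on chromosome 11, from 88968816 to 88969555, near Elobl.

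Internal ERVK peaks were mostly intergenic in both lists, with a ratio of intron shares of 1.05 (0.653 to 1.68). Of the 392 Seh1 peaks 335 were intergenic and 57, or 14.5% (11.2 to 18.4%), were in introns. Of the 144 IgG peaks 121 were intergenic, 20, or 13.9% (8.69 to 20.6%), were in introns and 3 lay on unplaced sequence without a class. The intron share was lower than that of all Seh1 peaks (36.8%, 36.0 to 37.5%) and of all IgG peaks (33.5%, 32.2 to 34.8%). It was also lower than that of peaks with a repeat label, 30.2% (29.1 to 31.4%) for Seh1 and 27.4% (25.8 to 29.1%) for IgG. ERVK LTRs were intronic in 18.1% of Seh1 (15.96 to 20.4%) and 27.0% of IgG peaks (19.8 to 35.3%). Repeats were labelled almost solely at peaks classed as intron or intergenic, so proviral sequence in exons or at promoters is not counted here.

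Of the 57 intronic Seh1 peaks 55 lay within the RefSeq span of the gene named in their annotation, 54 genes in all. The median host length was 162.3 kb, against 119.5 kb over all intronic Seh1 peaks, and 35 of the 55 (63.6%) were in a gene over 100 kb, against 56.4%, a similar share. Of the 20 intronic IgG peaks 18 had such a host, 16 genes in all, with a median length of 61.7 kb against 150.1 kb over all intronic IgG peaks. Of the 18, 5 (27.8%) were in a gene over 100 kb, against 60.1%. These values rest on few genes, and 3 of the 18 peaks lay in 1 gene of 43.2 kb, Gtf3c3. The only host of 2 internal Seh1 peaks was Adarb2, which encodes a brain RNA-binding protein related to the RNA-editing enzymes; it held an IAPEz-int peak in intron 1 of 9 (chromosome 13, 8269448 to 8269710) and an RLTR10-int peak in intron 3 of 9 (8667512 to 8667754). By element, 24 of 127 IAPEz-int peaks (18.9%, 12.5 to 26.8%), 16 of 110 RLTR10-int peaks (14.5%, 8.55 to 22.5%) and 4 of 42 MMERVK10C-int peaks (9.52%, 2.66 to 22.6%) were in introns, with intervals that overlap.

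Seh1 peaks in internal sequence lay farther from a transcription start site (TSS) than the Seh1 list as a whole, as did those in ERVK LTRs. The median distance was 79.4 kb (66.7 to 98.7), against 37.8 kb (36.8 to 38.8) over all Seh1 peaks, 53.5 kb over all intergenic Seh1 peaks and 68.1 kb (59.6 to 79.4) over ERVK LTRs. Within 10 kb of a TSS lay 27 of 392 (6.89%, 4.59 to 9.86%), against 18.1% (17.5 to 18.7%) of all Seh1 peaks. That total includes promoter and exon peaks. The share was 15.7% (15.1 to 16.3%) of intron and intergenic Seh1 peaks and 13.3% (12.5 to 14.2%) of those with a repeat label. Among ERVK LTRs it was 9.88% (8.25 to 11.7%), and this interval overlaps that of the internal peaks, as do the intervals of the medians. The nearest internal peak was 2.42 kb away. Repeats were labelled almost solely at intron and intergenic peaks, so the lack of promoter peaks follows from how the set was chosen. Upstream of their TSS were 215 of the 392 (54.8%, 49.8 to 59.8%).

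The IgG peaks showed no such shift. Their median distance in internal sequence was 53.8 kb (30.5 to 86.6), against 57.4 kb (54.2 to 60.4) over all IgG peaks, and 18 of 141 with a distance (12.8%, 7.74 to 19.4%) were within 10 kb, against 13.4% (12.5 to 14.4%). The Seh1 share within 10 kb was 0.540 times the IgG share (0.307 to 0.949) among internal peaks and 0.467 times (0.324 to 0.672) among ERVK LTRs, so this order is shared by the family. Among all peaks the ratio was 1.35 (1.25 to 1.45). It was 1.27 (1.17 to 1.38) among intron and intergenic peaks and 1.20 (1.06 to 1.35) among peaks with a repeat label.

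**Figure D3:**
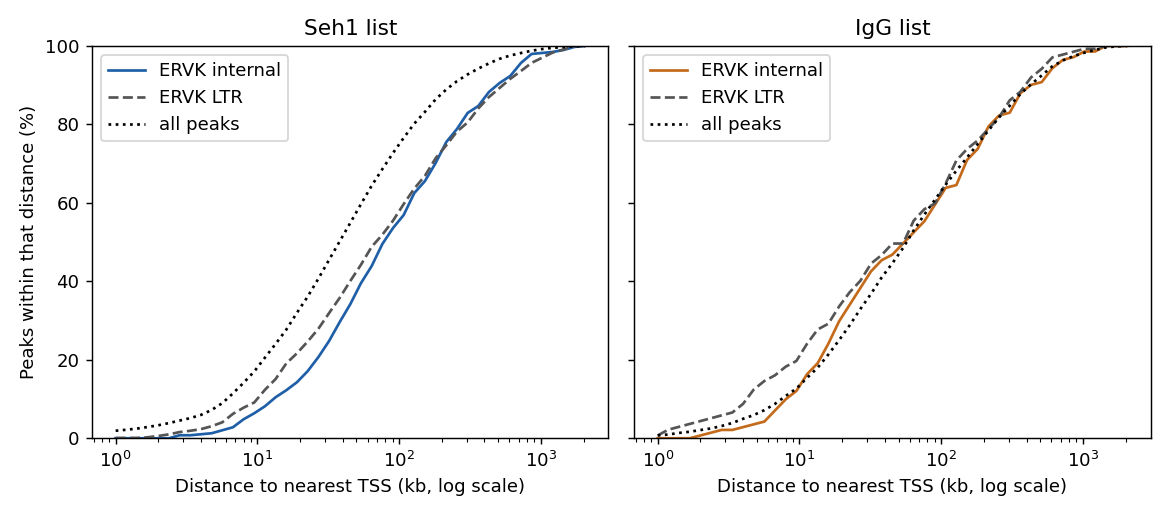
Cumulative share of peaks, in percent, by distance to the nearest transcription start site, in kb on a log axis, for ERVK internal peaks, ERVK LTR peaks and all peaks of the Seh1 list (left) and the IgG list (right). In the Seh1 list the internal curve runs to the right of all peaks, with medians of 79.4 and 37.8 kb; in the IgG list the curves lie close, with medians of 53.8 and 57.4 kb.

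The distance of the Seh1 peaks differed by element. IAPEz-int and RLTR10-int, with medians of 88.1 and 109.6 kb, together had 9 of 237 peaks within 10 kb (3.80%, 1.75 to 7.09%). All other names had 18 of 155 (11.6%, 7.03 to 17.7%), and MMERVK10C-int, with a median of 47.2 kb, had 6 of 42. Among IgG peaks IAPEz-int was again far from genes, with a median of 217.3 kb and 5 of 22 peaks within 100 kb, whereas ETnERV3-int had a median of 20.5 kb and 17 of 26 within 100 kb. Without IAPEz-int and RLTR10-int the median Seh1 distance was 56.9 kb.

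The Seh1 peaks nearest to a protein-coding TSS all lay upstream of it. A pair of RLTR10-int peaks on chromosome 13, from 50638299 to 50638652 and from 50640683 to 50640925, was 4.75 and 2.42 kb from the predicted gene Gm904. One more RLTR10-int peak, on chromosome 10 from 129977992 to 129978402, was 2.63 kb from Gm10310. An ERVB4_1-I_MM-int peak on chromosome 19, from 8134541 to 8134788, was 2.68 kb from Slc22a28, a gene of the organic anion transporter family. An MMERVK10C-int peak on chromosome 2, from 28491469 to 28491711, was 5.30 kb from Gbgt1, which encodes a glycosyltransferase of glycolipid synthesis. Among the IgG peaks nearest to such a TSS were the RMER16-int peak 2.25 kb upstream of Elobl and the first ETnERV3-int peak of Olfr461, 4.49 kb upstream.

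The surroundings of the Seh1 peaks held few genes. The median internal peak had 5 protein-coding genes (4 to 6) with centres within 500 kb, against 8 for all Seh1 peaks and 5 for ERVK LTRs, and 44 of 392 (11.2%) had none, against 4.46%. For IgG the medians were 7 (6 to 10) for internal peaks and 5 for all peaks. The set thus lay in gene-poorer sequence than its own list in the Seh1 library but not in the IgG library.

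By nearest TSS, the internal peaks were given to 280 of 21775 protein-coding genes (1.29%) for Seh1 and to 102 (0.468%) for IgG. None of 22 genes of endogenous retrovirus silencing (such as Trim28, Setdb1 and Dnmt1), none of 25 CDK inhibitor and p53 target genes (Cdkn1a among them, the gene of p21 named in the series title) and none of 24 neural stem cell genes (such as Sox2, Nes and Pax6) was among them in either list. At 1.29% fewer than 1 gene of each list would be given one, so these counts of 0 say little.

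The genes with 3 or more internal peaks were few. In the Seh1 list they were the non-coding gene 1700030C10Rik, with IAP-d-int and MMERVK10C-int peaks 480.7 to 679.8 kb away, and LOC108168459 on chromosome X, with 3 RLTR10-int peaks. For IgG they were Olfr461 with 4, and Gtf3c3, Cdh7 and Tspyl5 with 3 each. Numbered Zfp zinc finger genes, many of which encode the KRAB proteins that recognise retroviral sequence, were the nearest gene of 8 of 144 IgG peaks (5.56%, 2.43 to 10.7%) and of 3 of 392 Seh1 peaks (0.765%, 0.158 to 2.22%), against 2.77% of all IgG and 1.14% of all Seh1 peaks. Both intervals include the share of all peaks of their list. The IgG peaks were not spread evenly. Those nearest to Zfp987, Zfp992, Zfp985 and Zfp534 lay on chromosome 4 between 146083362 and 147715340, and others shared Zfp932. The Zfp genes were looked up after the values were seen.

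Chromosome X held a larger part of the internal Seh1 peaks than of all Seh1 peaks, most of all in RLTR10-int. It held 33 of 392 (8.42%, 5.87 to 11.6%), against 327 of all 16113 Seh1 peaks (2.03%, 1.82 to 2.26%), 3.63% (3.19 to 4.12%) of Seh1 peaks with a repeat label, 3.07% (2.17 to 4.21%) of ERVK LTRs and 6.76% (5.59 to 8.08%) of L1 peaks; the interval of the last overlaps that of the internal peaks. RLTR10-int supplied 17 of the 33, or 15.5% (9.27 to 23.6%) of its 110 peaks, and IAPEz-int 8 of 127 (6.30%, 2.76 to 12.03%). All names other than RLTR10-int together had 16 of 282 (5.67%, 3.28 to 9.05%), a share below that of L1. RLTR10 LTRs had 10 of 166 (6.02%, 2.93 to 10.8%). MMERVK10C-int had 0 of 42. The 33 peaks fell in 26 different bins of 1 Mb, with at most 3 in a bin. Of the IgG peaks, 4 of 144 internal peaks (2.78%, 0.762 to 6.96%) were on chromosome X, against 1.99% of all IgG peaks. Chromosome Y held 9 internal Seh1 peaks (2.30%, 1.06 to 4.31%), 6 of them in IAPEy-int, against 0.782% of all Seh1 peaks. It held 0 of 144 internal IgG peaks, against 0.320% of all IgG peaks, a share at which a count of 0 says little. How many copies of each element the chromosomes carry was not analysed here.

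**Figure D4:**
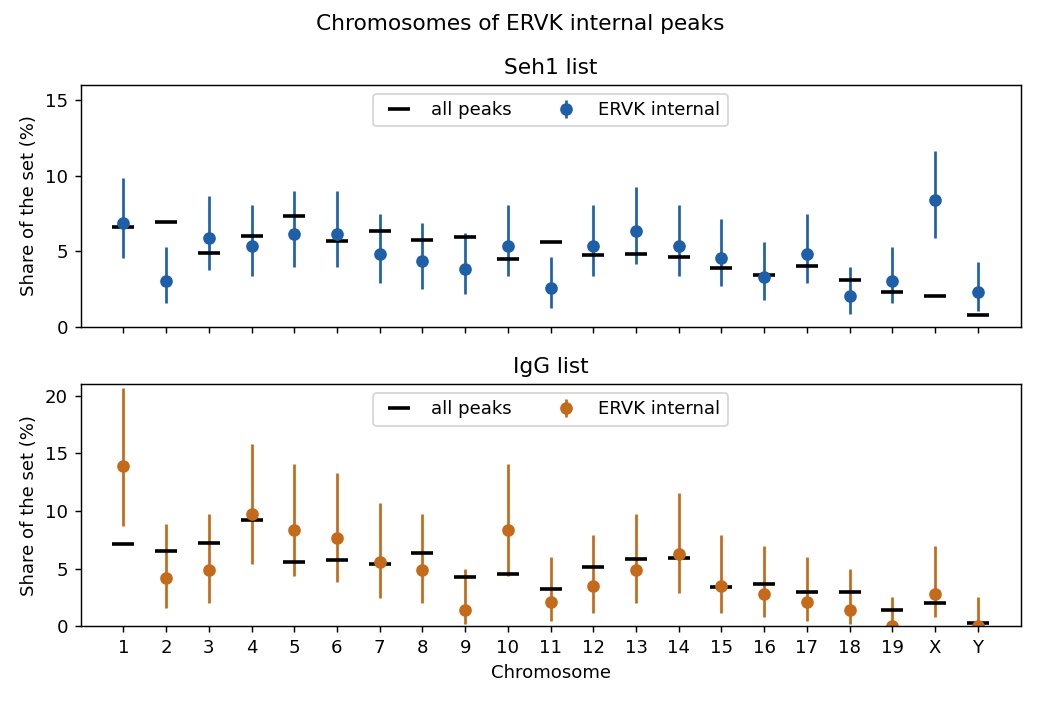
Share of ERVK internal peaks on each chromosome, in percent of the 392 Seh1 (top) and 144 IgG (bottom) internal peaks, as points with 95% exact binomial intervals; black bars give the share of all peaks of the list. On chromosome X the Seh1 point, 8.42%, lies above the bar at 2.03%. On the Seh1 autosomes the points lie at 0.439 to 1.32 times the height of the bars. Chromosomes 2 (3.06% against 6.97%) and 11 (2.55% against 5.62%) have intervals below the bar. They were singled out from all chromosomes by their intervals. Seh1 peaks in ERVK LTRs, not drawn, also lie below the bar there, at 4.56% (3.46 to 5.90%) and 3.57% (2.59 to 4.78%). On the IgG autosomes the points lie at 0 to 1.95 times the height of the bars, and the interval of chromosome 1 (13.9% against 7.11%) is above the bar.

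Regions where IgG peaks crowd were chosen by the IgG list itself, so neither the counts inside them nor the values without them are a test. Leaving them out shortens the IgG list from 5314 to 4685 peaks and the Seh1 list only from 16113 to 15802. That alone lowers the Seh1 to IgG ratio of any group whose own counts stay the same. The RLTR counts, 128 and 8, were unchanged. The 14 megabase bins that held 20 or more IgG peaks contained 13 of the 144 internal IgG peaks (9.03%) and 6 of the 392 internal Seh1 peaks (1.53%), against 11.8% and 1.93% of all peaks of the lists. Without these bins the log2 ratio of Seh1 to IgG shares was 1.15 for IAP names, 2.25 for RLTR names and -3.91 for ETn names, in place of 1.33, 2.40 and -3.84. For MYSERV names it was -3.92 in place of -4.60, and 9 of their 16 IgG peaks lay outside these bins.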

How the data were processed

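Per the labels, ChIP-seq libraries were made for Seh1, IgG and input, 1 each. The authors deposited 1 peak list for Seh1 and 1 for IgG; per the file headers, each pairs its library with the input and was annotated with HOMER annotatePeaks.pl against mm10 (GRCm38). The submitters' processing notes name Bowtie2 and HOMER, with no version, and list human builds, whereas headers and genes are mouse. The sources used here name no peak caller, threshold, or filter on duplicate or multiply mapped reads. The deposited peak score is 0 throughout, so depth and enrichment are unknown. The deposited coordinates and signed TSS distances (bp) were used as given; HOMER is known to annotate a peak by its centre.

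Counts, shares and intervals were computed with Python 3.11.15, pandas 2.3.3 and scipy 1.17.1 and tested on simulated lists. Gene lengths and positions came from RefSeq (GRCm38.p6), leaving out genes below 3 Mb on chromosomes other than Y. An intron's host was taken from the annotated transcript and kept only where the gene's span held the peak centre (not so for 2 Seh1 and 2 IgG peaks). The gene identifier matched for 390 of 392 Seh1 and 137 of 138 IgG internal peaks that carried one. For ratios, a count of 0 was set at 3 peaks, without the counting error of the other list. Element names with 5 or more peaks in either list are given singly. Single peaks named are the 5 widest Seh1, the 3 widest IgG, those nearest to a protein-coding TSS (5 and 3) and the widest Seh1 peak of each element group; genes nearest to 3 or more Seh1 internal peaks are also named, other genes and peaks were chosen after their values were seen, and 1 IgG peak that met this rule is not reported here. The members, groups and gene lists were chosen with earlier results of these data known. No internal peak overlapped a RefSeq promoter window (0 of 384 Seh1 and 0 of 139 IgG peaks on the chromosomes searched). Peaks classed as promoter hardly ever carry a repeat label, so these counts of 0 are no finding about the set. No genome sequence was used, so no sequence is printed.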

Additional observations from a re-analysis of the deposited data

How the results depend on the processing

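No paired analysis was possible because each group has 1 library. Settings were changed one at a time, and a value counted as kept if it stayed inside the interval of the reported one: 183 of 211 recomputed values did, and none changed direction where the interval of a ratio excluded equality. Keeping peaks wider than the minimum, leaving out dense bins, unplaced sequence or chromosomes X and Y (the last added after seeing the data), joining peaks within 10 kb, a wider name match (8 more Seh1 peaks) and protein-coding genes only moved no share, median or ratio out of its interval. Group ratios that still moved by over 1.5 times were those of ETn (log2 -3.84 to -4.46), MYSERV (-4.60 to -5.53) and other names (-5.41 to -4.42) among peaks wider than the minimum, and MYSERV (-3.92) without dense bins; the cause was not tested. Read depth is unknown and limits every comparison of list lengths.

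Taken as shares of ERVK peaks in place of all peaks, internal sequence was at 24.5% (Seh1) and 51.2% (IgG), a log2 ratio of -1.06. The Seh1 and IgG values by group on that basis were 10.96% and 8.19% for IAP, 8.02% and 2.85% for RLTR, 4.70% and 11.03% for MMERVK and ERVB, 0.689% and 18.5% for ETn, 0.125% and 5.69% for MYSERV and 0.0626% and 4.98% for other names; these move by construction, since the denominator is smaller. Without RLTR10-int and IAPEz-int, chosen after seeing the data, internal sequence was at 0.976% of Seh1 and 2.29% of IgG peaks (log2 ratio -1.23). The internal share of ERVK in the Seh1 list was then 11.4%, the intron share 10.97%, the median TSS distance 56.9 kb and the share within 10 kb 11.6%. With limits of 50 and 100 kb in place of 10 kb, 37.8% and 55.4% of Seh1 and 48.2% and 63.1% of IgG internal peaks were near a TSS. The number of Seh1 internal peaks beside an IgG peak, 0 by overlap, was 2 with centres within 1 kb and 17 within 10 kb.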
